A study of Mus musculus with 13 samples.

Results

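SMAD3 binding was mapped by ChIP-seq in mouse embryonic fibroblasts (MEFs) that expressed a constitutively active SMAD3 (Smad3CA) and had received no doxycycline (dox), so that the reprogramming factors had not been induced. The regions described are the 11512 merged Dox- SMAD3 peaks, called on the 3 pooled Dox- ChIP replicates over pooled input, together with the peak list of each replicate alone. The Dox- part of the series is 5 of its 13 samples, 3 SMAD3 ChIP and 2 input samples. Which input samples each call used is not given in the sources used here. The series also holds SMAD3 (n = 3), OCT4 (n = 3) and input (n = 2) samples from cells given dox at 1 µg/ml (Dox+), of which only the SMAD3 lists are used here, for comparison.

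All the cells were MEFs of the TNG MKOS line, which carries a GFP reporter in one Nanog allele, a tetO-driven cassette of c-Myc, Klf4, Oct4, Sox2 (MKOS) and mOrange in one Sp3 allele, and a CAG-driven rtTA transactivator, on a mixed 129 and CD1 background. Smad3CA was delivered by a pMXs retrovirus and was present in Dox- and Dox+ cells alike, so no sample shows endogenous SMAD3 alone. Smad3CA has acidic residues in place of its terminal phosphorylated serines, which mimics the receptor-activated protein. Cells were collected on day 3 in embryonic stem cell medium with LIF. The labels do not say whether the replicates came from separate embryos or cultures, so the spread between them may be technical.

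SMAD3 carries TGF-β and activin signals to the genome. Ligand-bound receptors phosphorylate its C terminus, it joins SMAD4, and the complex enters the nucleus, where it binds short SMAD boxes (CAGAC) with low affinity and usually beside partner factors such as AP-1. In fibroblasts the pathway is known for switching on collagen and other matrix genes, the cytoskeleton of contractile cells, and its own inhibitors.

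Sequences under peaks at known TGF-β target genes are shown first, because they carry the letters that SMAD3 is known to recognise. The full SMAD palindrome GTCTAGAC lay in peaks of 2 or more replicate lists at the starts of Smad6 and Col1a1, among others. Smad6 encodes an inhibitory SMAD and Col1a1 the main fibrillar collagen chain. The Smad6 window (chr9:64022056-64022123, minus strand, mm10) ends with 4 exonic bases, and the Col1a1 window (chr11:94936350-94936379, plus strand) lies in the first exon. Each is written 5′ to 3′ on the strand of the gene, with the palindrome in capitals.
Smad6: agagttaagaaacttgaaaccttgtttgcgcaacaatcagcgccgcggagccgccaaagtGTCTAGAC
Col1a1: acatgtctaggGTCTAGACatgttcagctt

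Other peaks held SMAD boxes and no palindrome. For Skil and Pmepa1 the 180 bp free of exonic bases with most boxes in the peak was picked. Such a pick does not show that boxes cluster there. The whole peaks held 10 boxes in 1909 bp (Skil) and 15 in 1794 bp (Pmepa1). Merged peaks near starts held 2.154 boxes per kb. At Skil, which encodes the SMAD corepressor SnoN, 5 boxes fell within 180 bp upstream of the gene (chr3:31094549-31094728, plus strand, no exonic base). At Pmepa1, which encodes a membrane protein that sequesters receptor-regulated SMADs, 8 boxes fell within 180 bp of intronic sequence centred 926 bp inside the gene (chr2:173275517-173275696, minus strand). A stretch centred 1735 bp downstream of the 5′ end of Mir21a, the gene of the microRNA miR-21 (chr11:86582360-86582486, minus strand), is shown for its AP-1 site, TGACTCA, inside the fifth widest peak of 2 or more lists. Capitals mark SMAD boxes on either strand (CAGAC or GTCTG), and in the last sequence also the AP-1 site.
Skil: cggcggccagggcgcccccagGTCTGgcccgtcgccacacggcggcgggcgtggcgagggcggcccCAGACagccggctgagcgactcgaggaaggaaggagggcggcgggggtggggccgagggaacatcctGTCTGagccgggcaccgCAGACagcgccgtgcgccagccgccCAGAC
Pmepa1: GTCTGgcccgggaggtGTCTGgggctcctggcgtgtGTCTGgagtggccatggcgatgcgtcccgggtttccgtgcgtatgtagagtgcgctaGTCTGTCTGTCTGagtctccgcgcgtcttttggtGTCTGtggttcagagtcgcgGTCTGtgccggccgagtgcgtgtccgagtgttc
Mir21a: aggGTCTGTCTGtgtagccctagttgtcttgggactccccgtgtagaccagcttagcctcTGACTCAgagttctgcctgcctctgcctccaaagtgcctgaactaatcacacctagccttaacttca

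The estimated depth of the libraries was low. In the deposited signal of the pooled Dox- samples, 1 ChIP fragment was worth 2.2 and 1 input fragment 2.65 genome means, which puts the pooled ChIP at about 0.455 and the pooled input at about 0.377 times the genome. These steps were read from bins at OCT4 peaks and their small multiples made up 51.7% of the non-zero bins, so both values are estimates. At this depth the absence of a peak does not show the absence of binding. Replicates differed widely in what could be called: the Dox- lists held 1656, 18588 and 4038 peaks for replicates 1, 2 and 3, over 0.760, 13.5 and 2.14 Mb, and the merged list covered 7.60 Mb.

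The fold enrichment and −log10 q-value written beside each broad peak did not follow the peak's own signal, while the positions did. Broad peaks consist of a wide region that may hold narrower blocks passing a stricter threshold, called strong blocks here. Of the 2991 merged Dox- peaks that were strong over their whole length, 1249 had a −log10 q-value under 1.3, which is the usual threshold of the strong blocks (q = 0.05, assumed here), and of the 2612 peaks with no strong block 1447 were above it. The median −log10 q-value was 1.48 in the first set and 1.44 in the second. Between overlapping merged and replicate peaks Spearman's rho of the listed fold was −0.045, 0.067 and 0.036 for replicates 1, 2 and 3, whereas rho of the width was 0.458, 0.676 and 0.493. These are correlations across sites whose merged list contains the replicate's reads. Width and strong bases were therefore used to describe peaks, and the listed values only where named.

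The Dox- SMAD3 peaks lay mainly at gene starts. Of the merged peaks 7968 (69.2%) had their centre within 1000 bp of an annotated transcript start, and 6571 (57.1%) within 250 bp. That zone makes up 5.88% of the genome and held 72.4% of the covered bases, 12.3 times its share. Introns held 10.7% of the covered bases against 37.3% of the genome, a ratio of 0.286, and sequence between genes 13.7% against 53.7%, a ratio of 0.256. Exons outside the start zone were covered at 1.04 times their share.

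The share at gene starts was not stable between replicates. Centres within 1000 bp made up 91.1%, 51.5% and 74.3% of the lists of replicates 1, 2 and 3. The shortest list was the most promoter-bound and the longest list the least. Beyond 50 kb from any transcript start lay 426 merged peaks (3.70%).

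Peak coverage was highest just inside the gene. Merged peaks covered position +50 bp in 27.4% of protein-coding genes, and on average 13.7% over the first 1000 bp of the gene against 8.82% over the 1000 bp upstream. The excess on the gene side was seen in all 3 Dox- lists, with 1.82% against 1.11% in replicate 1, 17.9% against 12.4% in replicate 2 and 4.18% against 2.41% in replicate 3. Coverage 4000 to 5000 bp away from the start was 0.626% upstream and 0.789% downstream.

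**Figure D1:**
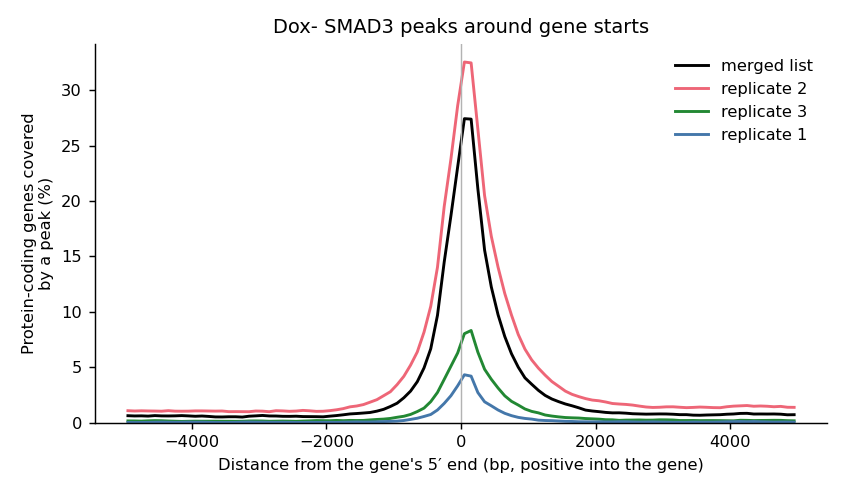
Share of protein-coding genes covered by a Dox- SMAD3 peak (y axis, %) against distance from the gene's 5′ end (x axis, bp, positive into the gene, bins of 100 bp), with 1 line for each replicate list and the merged list. The merged list peaks at 27.4% just inside the gene, and every list falls off faster upstream than downstream.

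Peaks at gene starts were CpG-rich and the others were not. The CpG ratio, the observed number of CG dinucleotides over that expected from the C and G content, had a median of 0.817 in merged peaks near starts and 0.231 in the 3544 peaks farther away, with G+C at 65.5% and 48.7%. Peaks near starts were also wider, with a median of 558 bp against 370 bp. Among gene starts themselves, the 1000 bp around the 5′ end had a median CpG ratio of 0.755 (quartiles 0.618 and 0.862) in the 8270 genes with a merged peak within 1000 bp of a transcript start, and of 0.309 (quartiles 0.153 and 0.622) in the 13641 genes without one.

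Most merged peaks were modest in width. The median was 501 bp, with quartiles of 304 and 813 bp and a minimum of 186 bp. Widths over 2000 bp were reached by 315 peaks (2.74%), and the widest spanned 17018 bp. Strong blocks were present in 77.3% of merged peaks and filled 48.6% of the covered bases. Replicate lists had medians of 363, 543 and 417 bp.

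Only a minority of the merged peaks was found again in separate replicates. Overlap means at least 1 shared bp. Of the 11512 merged peaks 977 (8.49%) overlapped a peak in all 3 Dox- lists, 3074 (26.7%) in 2, 7039 (61.1%) in 1 and 422 (3.67%) in none, so that 4051 (35.2%) were in 2 or more lists. Replicate 2 stood behind most of the list: 6881 merged peaks (59.8%) overlapped its peaks alone, while 134 overlapped replicate 3 alone and 24 replicate 1 alone. Without replicate 2, 980 merged peaks overlapped both of the other lists.

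The short lists were nearly contained in the long one. Of replicate 1 peaks 95.5% overlapped a replicate 2 peak, and of replicate 3 peaks 86.2% did, whereas 8.43% and 18.4% of replicate 2 peaks overlapped replicates 1 and 3. Between the shorter lists the overlap was 56.6% of replicate 1 and 23.2% of replicate 3. Of the replicate 2 peaks 58.1% overlapped a merged peak.

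**Figure D2:**
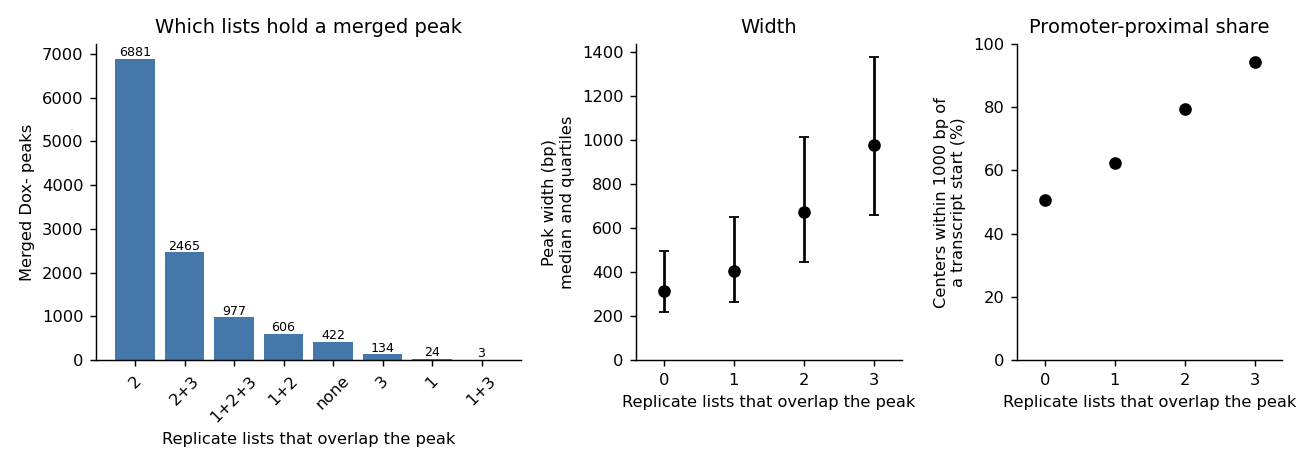
Left, number of merged Dox- peaks (y axis) by the replicate lists that overlap them (x axis); middle, peak width in bp as the median with quartile bars; right, share of peaks centred within 1000 bp of a transcript start, both by the number of overlapping lists. Replicate 2 alone accounts for 6881 peaks, and width and promoter share are larger at higher support.

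Reproducible peaks were wider and closer to genes. Median width was 314, 407, 675 and 977 bp for peaks in 0, 1, 2 and 3 lists, and the share near a transcript start was 50.7%, 62.3%, 79.6% and 94.3%. The median CpG ratio was 0.438, 0.642, 0.781 and 0.825 in the same order. A wider peak has more bases with which to overlap another list, so the order of widths is partly built into the count. The orders of promoter share and CpG ratio are partly built in as well. A peak in 3 lists must overlap replicate 1, whose own list was 91.1% near starts with a median CpG ratio of 0.861. Most peaks in 1 list overlapped replicate 2 alone, whose list was 51.5% near starts. Of the distal peaks, those farther than 1000 bp from every start, 684 (of 3544) were in 2 or more lists. The peaks found in 3 lists were also nearly all among the merged Dox+ peaks, 98.5%, against 57.5% of those in 1 list. The Dox+ lists come from other ChIP samples, but which input replicates each call used is not given in the sources used here, so both lists may share a control.

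The 10 widest merged peaks in 2 or more lists lay over or beside transcription units, 6 of them centred more than 2000 bp from any start. The widest, chr19:5827651-5844668, covered most of Neat1, the long noncoding RNA that builds paraspeckles. Replicates 1, 2 and 3 covered 3346, 17018 and 14615 bp of it. Its neighbour Malat1, an abundant nuclear noncoding RNA, carried a 5810 bp peak (chr19:5798930-5804739) of which the replicates covered 2156, 5810 and 4521 bp.

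A 7314 bp peak began just downstream of Mir21a (chr11:86576302-86583615) and overlapped no annotated protein-coding gene. The replicates covered 2750, 7186 and 4590 bp of it. Jun, the AP-1 subunit gene, was covered from end to end by a 6818 bp peak (chr4:95047190-95054007), with 307, 5880 and 2615 bp in the replicates. Replicate 1 called only a small piece of this peak.

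Ypel4 was covered over most of its peak in every replicate, with 3570, 6010 and 4635 bp of a 6010 bp peak (chr2:84733888-84739897). Tnrc18 had an 8004 bp peak over its start and upstream of it (chr5:142817130-142825133), with 4891, 7207 and 2504 bp in the replicates. The peak over the start of Usf2 and the 3′ part of Lsr (chr7:30956063-30964742, 8680 bp) was called almost whole in replicate 2 (7862 bp) and hardly in replicates 1 and 3 (674 and 365 bp). The others described were at the noncoding gene Gm26981 (8070 bp) and at Ppp1r10, which encodes a nuclear subunit of protein phosphatase 1 (7130 bp). Their CpG ratio ran from 0.177 at Gm26981 to 0.633 at Jun.

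**Figure D3:**
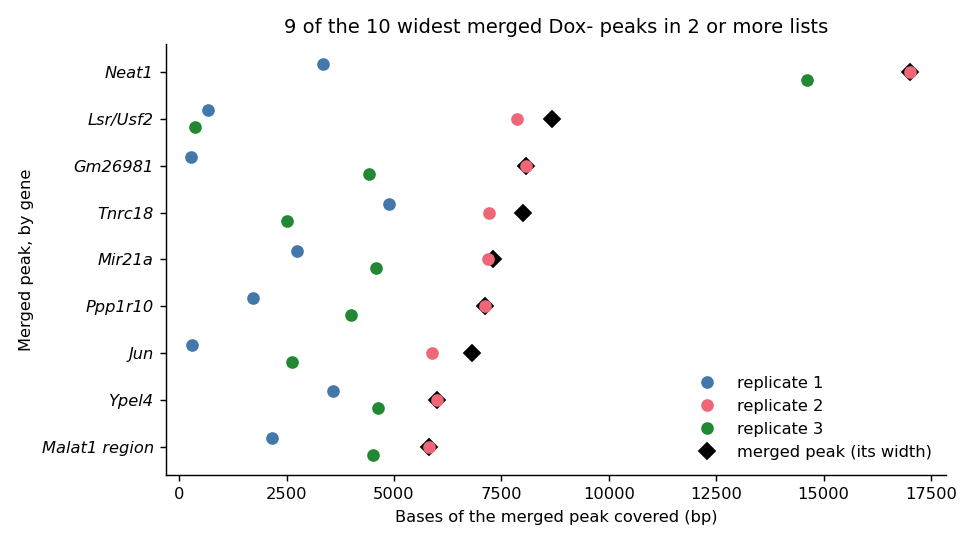
Bases covered (x axis, bp) in each Dox- replicate list (circles) of 9 of the 10 widest merged peaks found in 2 or more lists (y axis, by gene), with the width of the merged peak (diamonds). Replicate 2 covers each peak nearly whole, and replicate 1 covers least at all but Tnrc18 and Lsr/Usf2.

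Genes with the most covered bases were counted over the gene and 1000 bp on each side. Of the 15 highest, Gm20388 (37660 bp) and Fgfr2 (11242 bp) are annotated over spans that hold 71 and 29 other protein-coding genes, so their bases cannot be assigned to them. Dnm3, which encodes a dynamin, had 12653 bp in 17 peaks, with 2601, 22881 and 2299 bp in replicates 1, 2 and 3. H2-DMa had 10008 bp in 3 peaks, with 3125, 12491 and 4007 bp in the replicates.

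Several of the other 11 are regulators. Smad7, the inhibitory SMAD that TGF-β induces, had 6112 bp in 4 peaks, with 794, 4905 and 2716 bp in the replicates. Nab2, a corepressor of EGR factors, had 7194 bp with 0, 7926 and 3830 bp in the replicates. Bcl9l, a coactivator of β-catenin, had 6373 bp, Rara, the retinoic acid receptor α gene, 5985 bp, and Lrp1, an endocytic receptor gene, 5960 bp. Dbp, a clock-controlled factor gene, had 5972 bp in a single peak seen in replicate 2 alone (6938 bp). Lsr (7973 bp), Ppp1r10 (7130 bp), Bicral (6035 bp) and Ypel4 (5768 bp) were also on the list.

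The ranking depended on how peaks were given to genes. Of the 15 genes 12 stayed on the list when the gene alone was counted, 10 when only peaks in 2 or more lists were used, 7 with 10000 bp on each side, and 2 (Dnm3 and Bcl9l) when each peak went to the nearest protein-coding start. In the last count Frmd8, which neighbours Neat1, led with 22546 bp, while Gm20388, Lsr and Nab2 held 0 bp.

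Short genes could be covered nearly whole. Among genes spanning at most 10000 bp with their flanks, Jun and Hist1h3a were covered over 100% of that span, Inka1 over 95.2%, Ypel4 over 87.4%, Dbp over 83.9% and Id3 over 82.0%. Jun, Id3, Ypel4, Jund (73.9%), Gadd45g (73.4%) and Ier3 (72.7%) had some called bases in all 3 replicates, but not coverage of this extent in each. In the same order replicate 1 covered 307, 533, 3570, 323, 330 and 817 bp. The merged list covered 5189, 3494, 5768, 2712, 2781 and 2356 bp. Hist1h3a was covered in replicate 2 alone.

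Ranking by the listed −log10 q-value among peaks in all 3 lists gave a different set of loci, all but one within 1000 bp of a start: Eif1, Fam149b, Atl3, Hmga2, Hic2, Kat6a, Stx7, Sec62 and a pair of peaks at Maml3. Their widths ran from 557 to 1771 bp. As the listed values did not follow the peaks, this order says little about the strength of binding.

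Peaks were then assigned to genes. A merged Dox- peak lay in the gene or within 1000 bp of it for 8994 of 21911 protein-coding genes, 41.0% of them, and a merged peak in 2 or more lists for 4108, 18.7%. A peak within 1000 bp of a transcript start was found for 8270 genes, 37.7%. The lists that follow were picked for fibroblasts and this pathway, with earlier results of these data known. Their genes tend to be active in MEFs and to have CpG-rich starts, and no test of a list was made. The median number of covered bases over all genes was 0. A count over the whole gene also favours long genes, and length was not adjusted for. Median gene length was 17433 bp over all protein-coding genes. In the lists it ran from 539 bp (replication-dependent histone genes) to 74567 bp (RUNX, CEBP, NFI and TEAD factors).

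All 10 feedback inhibitors of the pathway had a merged peak, and all 10 had it at a start, against 41.0% and 37.7% of all genes. For 9 of them a peak was in 2 or more lists, against 18.7% of all genes, the exception being Tgif2. Replicate lists 1, 2 and 3 held peaks at 8, 10 and 6 of the 10, against 8.26%, 49.0% and 17.2% of all protein-coding genes. Their median coverage was 1552 bp. Skil had 620, 1783 and 1925 bp in the replicates and Pmepa1 224, 3659 and 944 bp. Smurf2, a ubiquitin ligase for SMADs and receptors, had 425, 987 and 642 bp, whereas Smad6 had 765, 3788 and 0 bp.

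Of the 6 SMAD transducers 5 had a peak, against 41.0% of all protein-coding genes, and Smad9 had none. Smad5 was called in all 3 replicates (343, 890 and 583 bp), and Smad2 in replicate 2 alone. Smad4, the common partner, had 0, 1017 and 884 bp. Smad3 itself had 5 merged peaks, of which the one at its start (chr9:63757642-63758542) was found in replicate 2 alone.

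Ligand and receptor genes had peaks at 14 of 17, of which 7 were in 2 or more lists, against 41.0% and 18.7% of all genes. The receptor genes Tgfbr1 (340, 1690 and 1025 bp) and Tgfbr2 (257, 1442 and 591 bp) were called in every replicate. Tgfb1, Tgfb2 and Tgfb3 were called in replicates 2 and 3 only. Nodal, Mstn and Acvr1c had no peak in any list.

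Among 16 classical SMAD3 targets 12 had a peak and 10 had one in 2 or more lists (all genes: 41.0% and 18.7%). Cdkn1a, the p21 gene, had 4555 and 414 bp in replicates 2 and 3 and less in replicate 1. Id3, an inhibitor of basic helix-loop-helix factors, had 533, 3780 and 587 bp. Junb was covered over 3950 bp (291, 4780 and 1687 bp). Ccn2, the connective tissue growth factor gene, was called in replicates 2 and 3 only. Acta2, which encodes smooth muscle actin, had no peak in any replicate, and Timp1, Lmcd1 and Pdgfb were called in replicate 2 alone and not in the merged list.

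In the AP-1 family 10 of 14 genes had a peak, and 5 had one in 2 or more lists (all genes: 41.0% and 18.7%). Jun, Junb and Jund were called in all 3 replicates, and Fosl2 in replicates 1 and 2 (1087 and 3099 bp). Fos (499 bp) and Atf3 (359 bp) had peaks from replicate 2 alone. Immediate early genes had peaks at 13 of 16, with 12 in 2 or more lists. The exceptions were Egr2, Egr3 and Egr4, with no peak in any list, while Egr1 was called in replicates 1 and 2. Ier3 (817, 2079 and 855 bp), Ier5 (374, 1245 and 518 bp) and Btg2 (257, 1918 and 885 bp) were called in every replicate.

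Matrix genes had peaks at 17 of 20 and reproducible ones at 10, against 41.0% and 18.7% of all genes. Thbs1, whose product activates latent TGF-β, had 220, 4099 and 1602 bp near the gene, and the widest of its peaks (chr2:118127464-118130111) lay downstream of it. Col1a1 had 402, 4096 and 815 bp, Fbn1 533, 4449 and 943 bp, and Fn1, the fibronectin gene, 382, 2491 and 0 bp. Col3a1 and Sparc were called in replicate 2 alone. Postn had no peak in any list.

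Actin and adhesion genes had peaks at 20 of 23 and reproducible ones at 13, against 41.0% and 18.7% of all genes. Zyx (1032, 2506 and 837 bp), Tln1 (864, 975 and 893 bp), Actb (440, 2161 and 265 bp) and Tpm1 (609, 2771 and 292 bp) were called in every replicate. Cnn1 had no peak in any list. Of the 15 mesenchymal transcription factors 11 had a peak and 5 a reproducible one (all genes: 41.0% and 18.7%). Snai1 (210, 3232 and 253 bp) and Foxc1 (424, 1673 and 467 bp) were called in every replicate. Tcf21, Meox1 and Meox2 had none.

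RUNX, CEBP, NFI and TEAD factor genes had peaks at 14 of 16 and reproducible ones at 10, against 41.0% and 18.7% of all genes. This list had the longest genes by median. Cebpd was the most covered for its size (56.8%, with 460, 4386 and 1273 bp), and Yap1, a TEAD coactivator gene, had 444, 752 and 586 bp. Runx3 had no peak in any list.

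Housekeeping sets also had called peaks. Input is the only control among the samples, so a peak is enrichment over input. Of 79 cytosolic ribosomal protein genes 62 (78.5%) had a peak, a share like those of the pathway lists, and 34 (43.0%) a reproducible one. Of 67 replication-dependent histone genes 36 (53.7%) had a peak and 12 (17.9%) a reproducible one, the latter close to the 18.7% of all genes. Histone genes lie in clusters, so neighbouring members can share a peak.

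Markers of other cell types were mostly without peaks. Fibroblast markers had a peak at 11 of 12 and a reproducible one at 7, with Pdgfra (4950 bp) and Pdgfrb (4750 bp) the most covered. Epithelial markers had a peak at 1 of 11 (Cldn7), endothelial at 0 of 7, blood at 1 of 7 (Cd68), neural at 1 of 7 (Rbfox3) and pluripotent at 1 of 12 (Sox2, a vector gene). The peaks at Cldn7, Cd68 and Rbfox3 were reproducible and that at Sox2 was not. Reproducible peaks were thus at 9.09% of epithelial, 14.3% of blood and 14.3% of neural markers, against 18.7% of all protein-coding genes. Epcam, Cdh1, Ptprc, Cd3e, Tubb3, Nanog and Pou5f1 were at 0 bp in all 3 Dox- lists. Replicate lists 1, 2 and 3 held peaks at 1, 12 and 7 of the 12 fibroblast markers, so replicate 1 alone did not set them apart. Median gene length was 37450 bp for fibroblast, 7856 bp for epithelial and 91119 bp for endothelial markers, and was not adjusted for. In the merged list the peaks at the markers fit the fibroblast label of the cells.

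**Figure D4:**
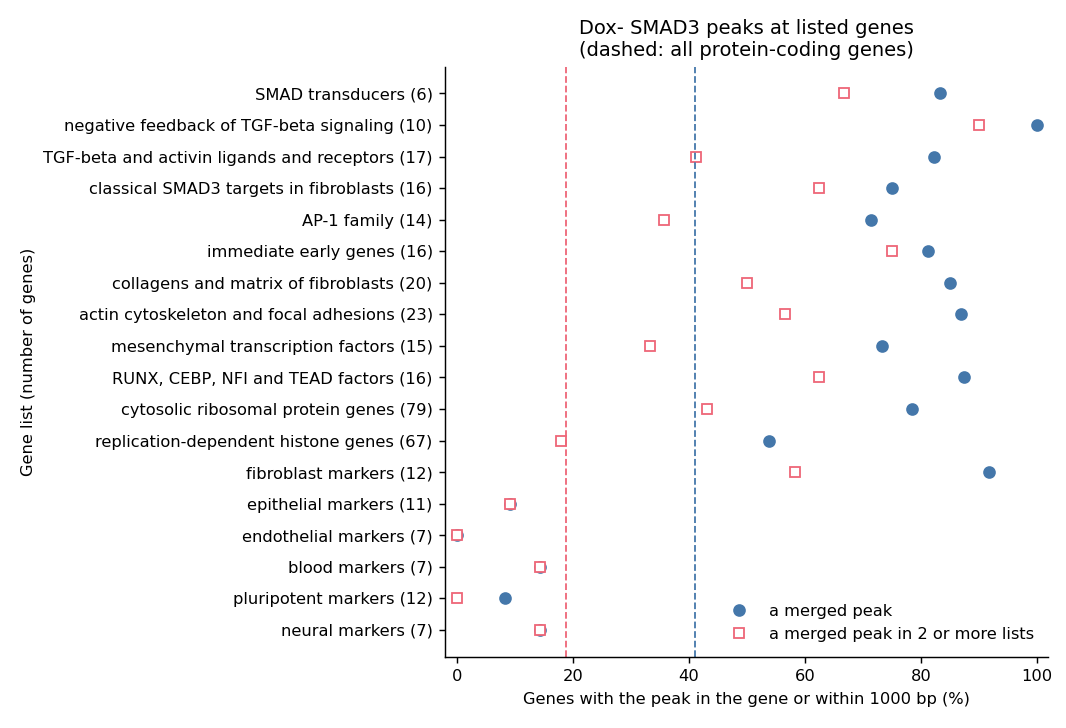
Share of each list's genes (x axis, %) with a merged Dox- peak in the gene or within 1000 bp (circles) and with one found in 2 or more replicate lists (squares), by list (y axis, with the number of genes). Dashed lines give the same shares over all protein-coding genes, 41.0% and 18.7%; pathway, matrix and ribosomal protein lists lie above their lines, and the markers of other cell types below them.

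Genes carried by the vectors need separate reading, since vector DNA can add fragments over the coding exons. Smad3, Myc, Klf4, Sox2 and Sp3 had merged peaks and Pou5f1 had none. The Sox2 peak (chr3:34650800-34651276) was 100% exonic and came from replicate 2 alone, and 1 of the Klf4 peaks (chr4:55530291-55530922) was 100% exonic. The Myc peak (chr15:61985425-61985765) was 100% exonic as well and lay 27 bp from a transcript start. These shares count exons and do not separate coding from untranslated bases. At Smad3 the merged peaks were at most 39.2% exonic. At Sp3, the gene that holds the cassette, the 4050 bp peak (chr2:72978711-72982760) was 18.1% exonic. How far vector DNA contributed was not tested.

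Motif content differed between peaks near starts and distal peaks. In the central 200 bp the AP-1 site TGANTCA was present in 18.4% of the 3544 distal peaks, against 6.04% of windows of the same length 1000 bp beyond the peaks' edges. Near starts it was present in 2.64% of peaks, against 4.09% of all protein-coding gene starts. Distal peaks centred on their largest strong block had it in 20.8% (470 of 2259). In the 684 distal peaks of 2 or more lists the share was 13.0%, against 5.41% of flanks. The site was searched on both strands, and its letters hold none of the other motifs.

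Distal peaks also held more TEAD sites (GGAATG, 18.3% against 10.8% of flanks), RUNX sites (TGTGGT, 18.5% against 15.2%) and E-boxes (CAGCTG, 16.4% against 9.57%). In the distal peaks of 2 or more lists the TEAD site was in 19.0% against 11.8% of flanks and the E-box in 16.8% against 10.2%, while the RUNX site was in 14.6% against 14.7%. The SMAD box CAGAC was found in 42.9% of distal peaks and 38.9% of their flanks (42.4% and 41.9% for distal peaks of 2 or more lists), and in 33.0% of peaks near starts against 37.2% of all gene starts. It was thus no more frequent near starts than at gene starts in general. The palindrome GTCTAGAC, which contains no CAGAC, was rare, with 19 of 3544 distal peaks (0.536%) against 16 of 7088 flanks (0.226%). Near starts, where the Smad6 and Col1a1 examples lie, the palindrome showed no excess. It was in 10 of 7968 peaks (0.1255%), against 0.1506% of flanks and 0.1095% of all gene starts. Anywhere in the peak, 81 of the 11512 merged peaks (0.704%) held it.

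Peaks near starts differed from gene starts in general in other letters. The GC box GGGCGG was in 54.0% of them, against 39.9% of all gene starts, and the ETS site CCGGAAG in 11.4% against 9.58%. The NFY box CCAAT was in 17.1% against 28.1%, and the CRE TGACGTCA in 1.64% against 2.01%. Those peak windows lay at peak centres rather than at gene starts. Gene starts with a merged peak had the GC box in 60.2% and the ETS site in 16.0%, and gene starts without one in 27.7% and 5.71%. Between these 2 sets the NFY box hardly differed, 27.2% with a peak and 28.7% without. The CRE went the other way, 2.987% with a peak and 1.415% without. These are matches to letters in fixed windows, and base composition differs between the sets.

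The Dox- lists were then set against the Dox+ lists to ask whether MKOS induction changed the character of the SMAD3 regions. None of the 5 features compared differed beyond the spread between replicate lists. With 3 lists against 3, an exact two-sided permutation test cannot give a p below 0.1, so no difference could have passed 0.05.

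The share of centres near a transcript start averaged 72.3% ± 19.9 (SD, n = 3) over the Dox- lists and 68.3% ± 18.8 (SD, n = 3) over the Dox+ lists. The exact permutation p was 0.7, and 0.875 after adjustment over the 5 tests by the Benjamini-Hochberg method. The Dox+ lists had 84.8%, 47.8% and 72.3% in replicates 1, 2 and 3, so the ranges of the groups overlapped. At each replicate number the Dox- list was the higher (91.1%, 51.5% and 74.3%), but the labels do not say that numbers pair the lists.

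Log2 median width averaged 8.76 ± 0.30 (SD, n = 3) without dox and 8.66 ± 0.72 (SD, n = 3) with it (exact permutation p = 0.9, adjusted 0.9). Strong blocks were present in 48.4% ± 10.5 (SD, n = 3) of Dox- peaks and 58.2% ± 13.3 (SD, n = 3) of Dox+ peaks (exact permutation p = 0.3, adjusted 0.875). The Dox- values were 43.2%, 60.5% and 41.5%, and the Dox+ values 42.9%, 66.9% and 64.8%. The median CpG ratio was 0.689 ± 0.223 (SD, n = 3) and 0.652 ± 0.231 (SD, n = 3) (exact permutation p = 0.7, adjusted 0.875).

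The AP-1 site was present in 10.1% (15 of 148), 17.6% (1589 of 9012) and 13.3% (138 of 1039) of distal peaks in Dox- replicates 1, 2 and 3, and in 14.1%, 13.7% and 9.64% in Dox+. The means were 13.7% ± 3.77 (SD, n = 3) and 12.5% ± 2.45 (SD, n = 3), with an exact permutation p of 0.7, adjusted 0.875. In the merged lists the shares were 18.4% in Dox- and 13.6% in Dox+, a gap that the replicate lists did not show beyond their spread.

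**Figure D5:**
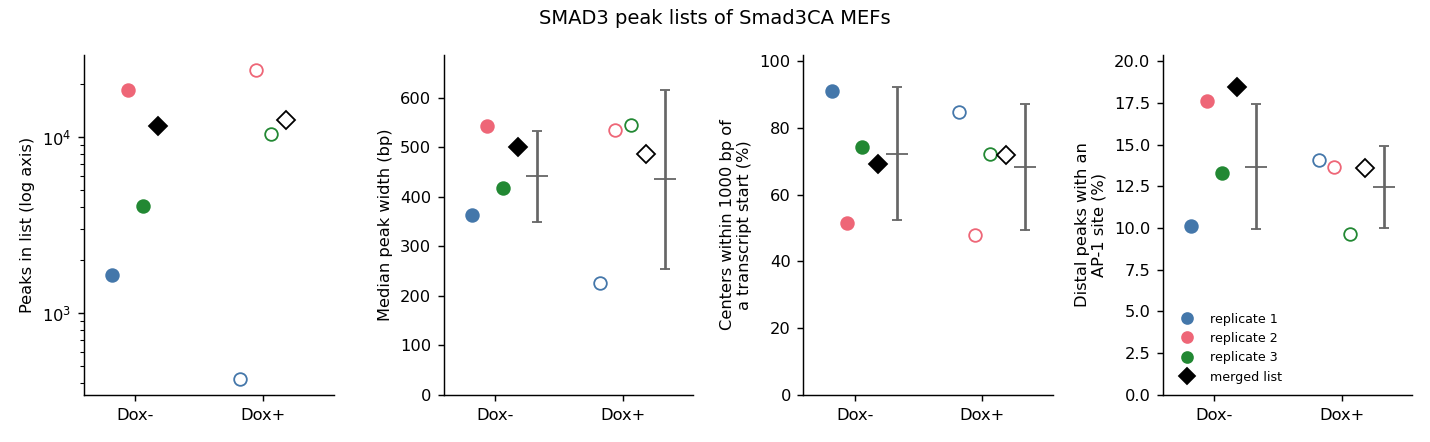
Number of peaks (log axis), median width (bp), share of centres within 1000 bp of a transcript start (%) and share of distal peaks with an AP-1 site (%) in the Dox- (filled) and Dox+ (open) SMAD3 lists; circles are replicate lists, diamonds merged lists, grey bars the mean ± SD of 3 replicate lists where shown. Dox- and Dox+ replicates overlap in every panel, and replicates of the same number lie near each other in the promoter share.

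Position by position the merged lists shared much. Of the 11512 merged Dox- peaks 7627 (66.3%) overlapped a merged Dox+ peak. Among peaks near starts 84.5% did, and among distal peaks 25.1% did. Distal peaks in 2 or more Dox- lists overlapped a merged Dox+ peak in 43.6%. This overlap of lists does not show that a Dox- peak outside the Dox+ list was lost. The paper tested differential binding of SMAD3 and reports large changes on induction, with sites both gained and lost. That test was not repeated here.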

How the data were processed

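Per the labels and the methods of the study, chromatin of MEFs on day 3 was immunoprecipitated with an antibody to SMAD3 and sequenced. The authors checked reads with FastQC 0.11.5, trimmed them with Trimmomatic 0.36, aligned them to mm10 (GRCm38) with Bowtie2, removed duplicates (Picard 2.3.0), poorly mapped reads (SAMtools 1.3) and blacklisted regions (bedtools 2.25.0), and called broad peaks with MACS2 2.1.0 at a cutoff of 0.1 against merged input replicates, for each replicate and for merged replicates. The deposited lists give the fold over input (a ratio on a linear scale) and the −log10 q-value of a peak, and the gapped form of each list gives its strong blocks. The deposited signal matrix holds a score, input-subtracted coverage made with deepTools 2.2.3 at OCT4 peaks, and was used only to read depth. The authors' tables of differential binding (group concentrations, fold changes, p-values, false discovery rates) and the OCT4 files were not used.

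Peaks were placed with GENCODE annotation and the GRCm38 sequence, read from RefSeq's copy of the assembly. Motifs were searched on both strands. Genes named were the 15 with most covered bases, those nearest to the 10 peaks of highest −log10 q-value in 3 lists and to the 10 widest in 2 or more lists, the listed genes and the vector genes; some of these are not reported here. The printed sequences, the genes covered whole and the motifs other than AP-1 were chosen after values were seen. The regions and gene lists were chosen with earlier results of these data known. Exact permutation tests compared 1 value per replicate list between Dox- and Dox+, and 5 p-values were adjusted together. Overlap, distance, permutation and motif steps were tested on simulated data. Python 3.11.15, numpy 2.4.6, scipy 1.17.1, pandas 2.3.3, pysam 0.24.0 and matplotlib 3.10.9 were used.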

Additional observations from a re-analysis of the deposited data

How the results depend on the processing

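No alternative for the differences between Dox- and Dox+ lists could have given a p under 0.05, so the p-values say nothing of stability, and only the strong-block difference kept its sign in every list left out. Leaving out 1 replicate list at a time, the difference (Dox- minus Dox+) ran from −6.25 to 14.4 percentage points for the promoter share, from −0.31 to 0.32 in log2 median width, from −17.5 to −5.44 points for the strong-block share, from −0.0928 to 0.163 in CpG ratio and from −0.749 to 3.00 points for the AP-1 share. With the same number of peaks per list (420, the length of the shortest), taken by strong bases, the difference was −0.40 in log2 width, 19.05 points for the strong-block share and −2.60 points for the AP-1 share, and taken by width it was −2.47 points for the AP-1 share. Both ways of taking peaks were added after seeing the data. Choosing by strong bases fixes the strong-block share at 100% in longer lists. Whether replicate numbers pair the lists is not given by the labels, and the values did not settle it: deviations from the group mean across regions correlated at −0.521, −0.575 and −0.202 for numbers 1, 2 and 3, and at 0.58 and 0.537 between numbers 1 and 2, while same-numbered lists had similar promoter shares and CpG ratios. With a replicate block the sign-flip p, which cannot go below 0.25, was 0.25 for the promoter share (difference 3.99 points), 0.75 for width (0.11), 0.5 for strong blocks (−9.80 points), 0.25 for the CpG ratio (0.0368) and 0.75 for AP-1 (1.23 points). For the promoter share and the CpG ratio the Dox- value was the higher at every replicate number.

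Merged peaks in 2 or more lists numbered 2515 when at least 50% of the merged peak had to be covered, 1530 at a listed −log10 q-value of at least 2, and 980 to 3442 with 1 list left out, 980 without replicate 2 and 1583 without replicate 3. Of the 15 genes with most covered bases 7 remained with 10000 bp on each side, 2 with the nearest coding start, and 5, 5 and 8 in the lists of replicates 1, 2 and 3. Of the 296 distinct genes in the lists 222 had a merged peak, 101 at a −log10 q-value of at least 2 and 129 with a peak in 2 or more lists. As the listed q-values did not follow the peaks, their thinning is close to arbitrary; the cause was not tested.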

Other observations

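The X chromosome carried few Dox- SMAD3 peaks. It held 137 merged peaks, 0.801 per Mb, against 3.13 to 7.82 per Mb on the autosomes, and 10.8% of its 948 protein-coding genes had a merged peak within 1000 bp of a transcript start, against 30.8% to 45.8% on the autosomes. The sex of the cells was not used, and gene content and copy number were not tested.

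A 4912 bp merged peak at the 3′ end of Tmprss2, a transmembrane serine protease gene (chr16:97562326-97567237), was among the 10 distal peaks with most strong bases (3793 bp). Replicates 1, 2 and 3 of Dox- covered 0, 4912 and 4250 bp of it, and the 3 Dox+ lists 0 bp each. It was singled out after its values were seen. Another of these peaks, 5164 bp from the start of Socs3, an inhibitor of cytokine signaling, was covered over 651, 3745 and 2376 bp in Dox- replicates and 0, 3745 and 2838 bp in Dox+ replicates.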
